A study of Rhamphochromis sp. 'chilingali' and Astatotilapia calliptera with 50 samples.

Results

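The transcripts of 3 neural crest transcription factors, foxd3 (ENSACLG00000001505), pax3a (ENSACLG00000027241) and prdm1a (ENSACLG00000004069), were followed through somitogenesis in the embryos of a pair of cichlid species. The genes were taken by their identifiers, 3 of the 28001 entries of the gene table, and all 3 passed the filter on low values. Whole single embryos of Rhamphochromis sp. chilingali (RC) and Astatotilapia calliptera Mbaka (AC) were sequenced, 26 of RC and 24 of AC. The somite number (ss) defines the stages, with 8 stages shared between 4 and 30ss (10, 15, 18, 20, 22 and 26 among them) and a last RC stage of 37ss. The paper checked the stage on fixed embryos of each sampled cohort. Somite numbers are thus those of cohorts, and sequenced embryos of 1 group can differ in age. All groups held 3 embryos, apart from 2 in RC at 4ss. The AC embryos set against RC of 26ss carry 27 somites in their labels. No embryo had an experimental treatment or an engineered allele. The eggs of both species were reared in water with methylene blue. Each species was sampled from 1 clutch of eggs, so species and clutch cannot be told apart. In the main fits the p-values rest on the spread between sibling embryos, taken as 1 value per gene pooled over all groups.

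The neural crest is an embryonic cell population of vertebrates that is set up at the border of the neural plate, leaves the dorsal neural tube and gives rise to pigment cells, much of the craniofacial skeleton, and neurons and glia of the peripheral nervous system. Border genes such as pax3 act first, and specifiers such as foxd3 follow in the cells that become crest. pax3a encodes a paired-box transcription factor of the neural plate border, the dorsal neural tube and the part of the somite that gives rise to muscle and dermis. prdm1a (Blimp1) encodes a zinc finger factor that in zebrafish takes part in the formation of the neural crest, acts upstream of foxd3, and is also used in slow muscle and in the hatching gland. foxd3 encodes a forkhead factor of premigratory neural crest that is also transcribed in the somites and tailbud of zebrafish. RNA of whole embryos holds all of these sites together, and fewer expressing cells and less RNA per cell cannot be told apart in it.

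Between 17619762 and 25761159 reads per embryo were counted on genes in RC and between 19204419 and 27454591 in AC. The values given are the read counts of the authors after division by a size factor for each embryo, called normalized counts. The 3 genes had between 91 and 2610 reads in an embryo, for which counting alone gives an error of 10.5% to 1.96%, so the spread between embryos described below was mostly larger than counting error. Embryos of 1 group differed more from each other at 4ss than at 26 and 30ss. The pooled spread used in the main fits can thus be too small for 4ss and too large for those late stages. In RC at 10ss, the embryo of replicate 2 was at least 2-fold below both others in 10.2% of the 21123 genes tested. In RC at 15ss the embryo of replicate 3 was so in 10.4%, and in AC at 4ss the embryo of replicate 3 was so in 11.6%. The 2 RC embryos of 4ss differed by at least 2-fold in 17.4% of genes. The RC embryo of 10ss and the AC embryo of 4ss had the highest values of all 3 genes in their groups. That of RC at 15ss had the highest foxd3 and pax3a values of its group.

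**Figure D1:**
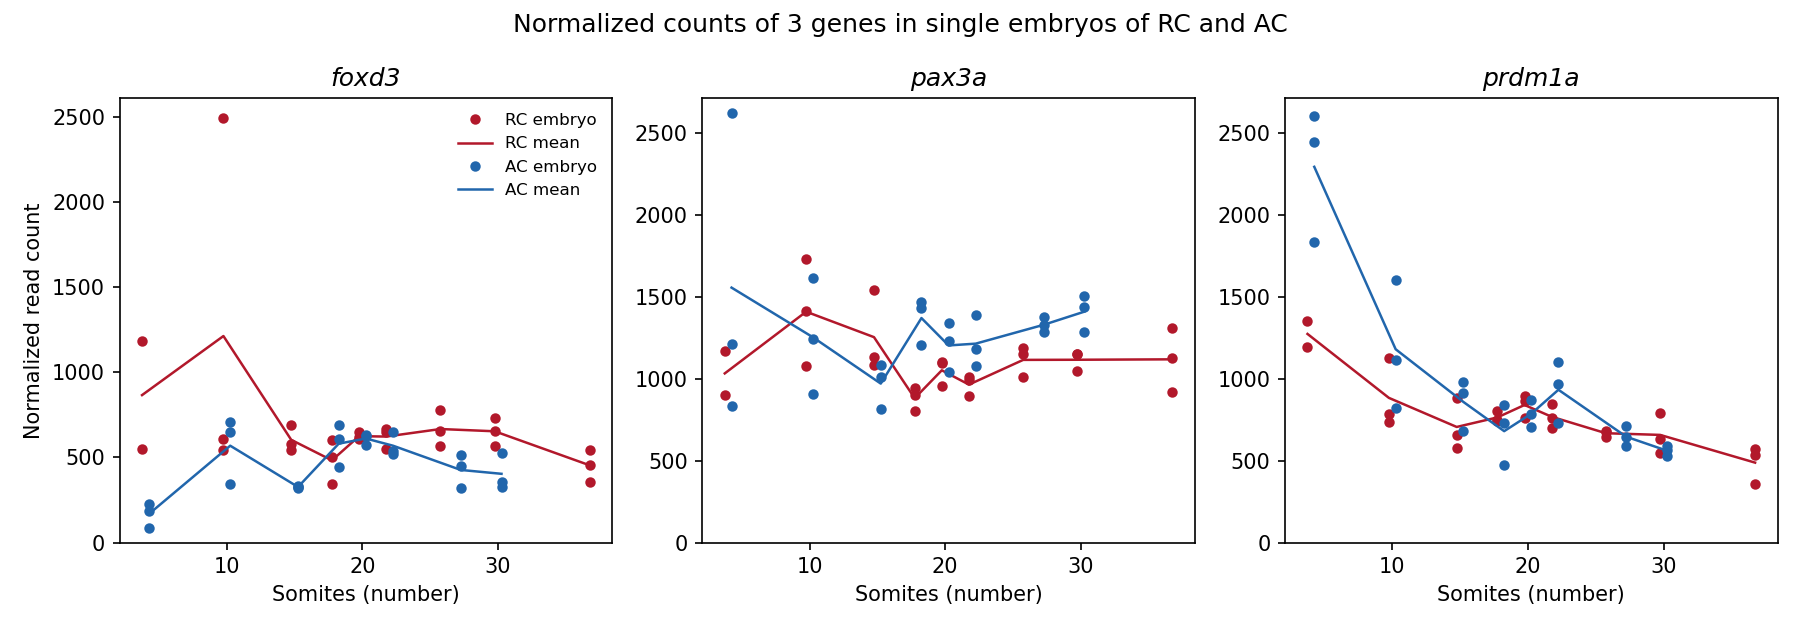
Normalized read count (vertical axis, linear from 0) of foxd3, pax3a and prdm1a against somite number in RC (red) and AC (blue). Points are single embryos, set slightly apart between species, and lines join group means. At 4ss foxd3 is higher and prdm1a is lower in both RC embryos than in all AC embryos, and 1 RC embryo of 10ss stands far above all others in foxd3 with 2490 normalized counts.

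foxd3 differed most between the species at 4ss, where it was higher in RC, and it was at similar levels in both species from 18 to 22ss. At 4ss the RC embryos had 550.7 and 1181 normalized counts, and the AC embryos had 85.8, 188.3 and 228.5. The lowest RC embryo was thus above the highest AC embryo. The difference, RC minus AC on the scale of log2(normalized count + 1) as for all differences below, was 2.38 (SE 0.41), a 5.19-fold higher level in RC (limma, Benjamini-Hochberg adjusted p = 2.4e-05). A gene was called where its adjusted p was under 0.05 and its difference, in either direction, was more than 1.5-fold. foxd3 stayed called at 4ss under every alternative setting run, but only narrowly in the weakest, where the adjusted p was 0.0471. At 4ss 25.4% of all genes tested were called, and 46.9% had ranges that did not overlap between the species.

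At 10ss foxd3 was at 541.4, 2490 and 606.5 normalized counts in RC and at 345.6, 709.7 and 650.9 in AC. A single RC embryo (replicate 2) held the high value, and the other RC embryos lay within the AC range. The difference of 0.78 (SE 0.36) was not called (limma, adjusted p = 0.134; 14.1% of genes called). It was called with edgeR (1.11, adjusted p = 0.0306), with DESeq2 (1.09, adjusted p = 0.0177), and when replicate 1 of RC was left out (1.18, adjusted p = 0.0336), and the difference was 0.08 without replicate 2 of RC. At 15ss the RC embryos had 578.7, 542.4 and 687.7 normalized counts, and the AC embryos had 325.7, 331.6 and 322.1. All RC embryos were above all AC embryos, as was the case at this stage, in either direction, for 41.7% of genes. The AC values spread by 1.48% of their mean (SD), less than counting alone gives, so they understate the spread between embryos. The difference of 0.88 (SE 0.36) narrowly missed the threshold (limma, adjusted p = 0.0611; 23.3% of genes called). It passed with each stage fitted alone (adjusted p = 0.00833), with DESeq2 (adjusted p = 0.0456), after quantile normalization (adjusted p = 0.0419), without replicate 2 of RC (adjusted p = 0.0304), and without the single RC embryo of replicate 2 at 10ss (adjusted p = 0.0136).

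From 18 to 22ss the foxd3 levels of the species overlapped. At 18ss the means were 482.8 ± 129.8 in RC and 580.8 ± 125.0 in AC (SD, n = 3 each), and at 20ss they were 624.7 ± 20.8 in RC and 611.1 ± 31.3 in AC. At 22ss they were 622.4 ± 63.8 in RC and 568.8 ± 67.8 in AC. The differences were -0.28, 0.03 and 0.13 at 18, 20 and 22ss, and none was called (20.9%, 11.9% and 10.8% of genes were called). Their 95% intervals ran from -1.02 to 0.46 at 18ss, from -0.71 to 0.77 at 20ss and from -0.61 to 0.87 at 22ss. These intervals use the spread of foxd3 pooled over all groups, and by them a difference of 1.5-fold is not excluded at any of these stages. The embryos of 20ss spread little, by 3.34% of their mean in RC and 5.12% in AC (SD). An interval from that stage alone was not computed.

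At the last shared stages the foxd3 differences were not called. RC embryos of 26ss had 655.5, 778.6 and 566.0 normalized counts, and the AC embryos of 27 somites had 512.4, 318.0 and 448.8. At 30ss RC had 657.7, 568.6 and 733.8, and AC had 326.6, 527.1 and 357.5. The ranges did not overlap at either stage, as for 41.8% and 41.0% of genes. The differences of 0.66 and 0.72 (SE 0.36 each) were not called (limma, adjusted p = 0.262 and 0.214; 9.93% and 10.4% of genes called), and were called when each stage was fitted alone (adjusted p = 0.0378 and 0.0336).

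**Figure D2:**
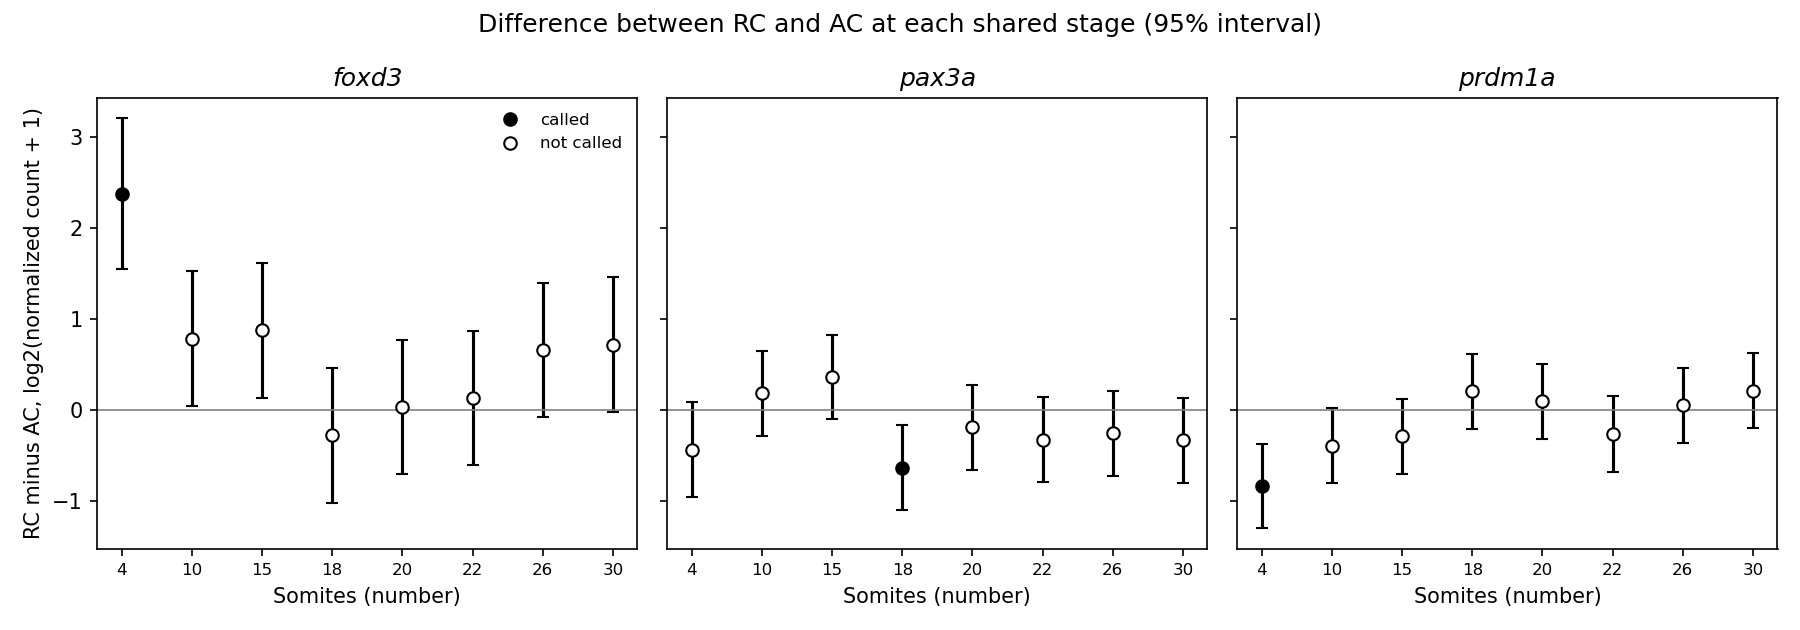
Difference between the species, RC minus AC on the scale of log2(normalized count + 1), at each of the 8 shared stages (horizontal axis, somites of RC) for the 3 genes. Bars are 95% intervals of the limma fit and filled points are called differences, which are 2.38 for foxd3 at 4ss, -0.63 for pax3a at 18ss and -0.83 for prdm1a at 4ss.

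prdm1a differed in the opposite direction from foxd3 at 4ss. The RC embryos had 1356 and 1192 normalized counts, and the AC embryos had 1833, 2449 and 2603. The ranges did not overlap, as for 46.9% of genes. The difference was -0.83 (SE 0.23), and prdm1a in RC was at 0.561 of its AC level (limma, adjusted p = 0.00439; 25.4% of genes called, 9.70% lower in RC). The call was lost without replicate 3 of RC, which leaves 1 RC embryo (-0.74, adjusted p = 0.0788), and with that stage fitted alone (adjusted p = 0.0506). At 10ss the RC embryos had 735.8, 1129 and 786.2 normalized counts, against 823.2, 1604 and 1115 in AC. The difference of -0.39 (SE 0.20) was not called (limma, adjusted p = 0.189), although without replicate 1 of AC it was (-0.62, adjusted p = 0.0345). From 15 to 30ss the differences lay between -0.29 and 0.21, no stage was called and the ranges overlapped at every stage.

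pax3a had the most even level of the 3 genes and was called between the species at 1 of the 8 stages. At 18ss the RC embryos had 800.1, 899.2 and 941.6 normalized counts, and the AC embryos had 1432, 1469 and 1206. The ranges did not overlap, as for 42.8% of genes. The difference was -0.63 (SE 0.23; limma, adjusted p = 0.0320; 20.9% of genes called), lower in RC. The call was lost without replicate 2 of AC and without each replicate of RC in turn (adjusted p = 0.0663 to 0.145). At 4ss pax3a had 897.5 and 1166 normalized counts in RC, against 834.1, 1210 and 2620 in AC. The highest value is again that of replicate 3 of AC, and the difference moved to 0.03 without the replicate 3 embryos of AC, against -0.43 with them. Without the replicate 1 embryos of AC the difference at 4ss was called (-0.80, adjusted p = 0.0103).

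At 15ss pax3a was at 1086, 1132 and 1540 normalized counts in RC and at 816.8, 1081 and 1011 in AC, with every RC embryo above every AC embryo. The highest value is that of replicate 3 of RC, and without the replicate 3 embryos of RC the difference was 0.20. At 22, 26 and 30ss the order was reversed, and every RC embryo was below every AC embryo. At 30ss, for example, RC had 1151, 1149 and 1044 normalized counts and AC had 1284, 1505 and 1435. None of these differences was called (0.36 at 15ss, and -0.33, -0.26 and -0.33 at 22, 26 and 30ss; limma, adjusted p = 0.231 to 0.547). Ranges that do not overlap were common over all genes at these stages (38.9% to 41.8%). At 10 and 20ss the ranges of pax3a overlapped.

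Averaged over the 8 shared stages, foxd3 was higher in RC by 0.66 (SE 0.13; limma, adjusted p = 5.31e-05), a 1.58-fold level, and was higher at 7 of 8 stages. By this measure 23.9% of all genes were called. The size rested partly on the earliest stages. Without the embryos of 4ss the mean difference was 0.42 (adjusted p = 0.00492) and without the RC embryo of replicate 2 at 10ss it was 0.57, so that the fold criterion was no longer met in either case. Leaving out all replicate 1 embryos of AC, or all replicate 2 embryos of RC, also brought it below that criterion (0.57 and 0.55). pax3a was lower in RC by a small amount (-0.20, SE 0.08; limma, adjusted p = 0.0330), which is under the fold criterion, and was higher in RC at 2 of 8 stages. prdm1a had a mean difference of -0.15 (SE 0.07; limma, adjusted p = 0.0756) and was higher in RC at 4 of 8 stages.

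Whether the species difference varied with stage was tested by an F-test over the 8 stages, for which 24.6% of genes passed an adjusted p of 0.05. foxd3 passed (F = 4.27, adjusted p = 0.0146), while pax3a (F = 1.99, adjusted p = 0.170) and prdm1a (F = 2.84, adjusted p = 0.0652) did not. The call for foxd3 was lost without the embryos of 4ss (adjusted p = 0.265), without replicate 1 or 2 of AC (0.0893 and 0.0542) and without replicate 3 of RC (0.218). For pax3a the test passed without the embryos of 4ss (adjusted p = 0.0340). For prdm1a it passed with DESeq2 (adjusted p = 0.0308), without replicate 1 of AC (0.0119) and without the RC embryo of replicate 2 at 10ss (0.0334).

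Within each species, the 3 genes followed different courses. prdm1a fell over somitogenesis in both. In RC its group means ran from 1274 normalized counts at 4ss to 488.2 at 37ss, and the test over all RC stages passed (limma F-test, adjusted p = 0.000482; 59.2% of genes passed). In AC they ran from 2295 at 4ss to 561.2 at 30ss (adjusted p = 1.93e-09; 75.5% of genes passed). Between successive stages only the first AC step was called for prdm1a, a step of -0.995 on the log2 scale between 4 and 10ss (SE 0.21; limma, adjusted p = 0.000191). All AC embryos of 10ss were below all of 4ss. At this step 29.4% of genes were called and 41.5% had ranges apart. In RC the same step was -0.55 (SE 0.23; limma, adjusted p = 0.106; 14.2% of genes called), also without overlap of the embryos, as for 35.8% of genes. It was called without the RC embryo of replicate 2 at 10ss (-0.74, adjusted p = 0.0403). The difference between the 2 steps, RC minus AC, was 0.44 (SE 0.31) and did not pass (limma, adjusted p = 0.364; 8.98% of genes called).

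foxd3 rose in AC between 4 and 10ss by 1.80 (SE 0.36; limma, adjusted p = 8.75e-05), a 3.49-fold step, and every AC embryo of 10ss was above every one of 4ss. The change over all AC stages passed the test (limma F-test, adjusted p = 9.17e-05). AC foxd3 then stood at 326.4 ± 4.8 normalized counts at 15ss, between 568.8 ± 195.5 at 10ss and 580.8 ± 125.0 at 18ss (SD, n = 3 each). The 3 AC embryos of 15ss were below all embryos of both neighbouring stages. Ranges were apart in 24.5% of genes between 15 and 18ss, and the share between 10 and 15ss was not computed. Neither step was called (-0.73 and 0.81; limma, adjusted p = 0.176 and 0.153; 8.28% and 5.71% of genes called). In RC no step was called for foxd3 and the change over all stages did not pass (limma F-test, adjusted p = 0.204), whereas it did with edgeR (0.0131) and DESeq2 (0.0124). The step between 4 and 10ss in RC was 0.21 (SE 0.40), and -0.49 without the embryo of replicate 2 at 10ss. The step of RC minus that of AC was -1.59 (SE 0.55) and narrowly missed the threshold (limma, adjusted p = 0.0542). It was -2.30 and passed without that embryo (adjusted p = 0.00131), and was -0.73 without replicate 3 of RC, which leaves 1 RC embryo at 4ss (adjusted p = 0.588). After 30ss foxd3 in RC was lower, at 544.3, 358.5 and 458.3 normalized counts at 37ss, against 657.7, 568.6 and 733.8 at 30ss. These ranges did not overlap, as for 16.5% of genes, and the step was not called (-0.54, SE 0.36; limma, adjusted p = 0.890; 0.306% of genes called).

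pax3a changed little with stage. The test over all stages did not pass in RC (limma F-test, adjusted p = 0.294) or in AC (0.350), although with DESeq2 it did in RC (0.00795). Its highest group mean was 1.60 times its lowest in RC as in AC. The step between 15 and 18ss went in opposite directions in the species. It was -0.49 (SE 0.23) in RC and 0.50 (SE 0.23) in AC, with no overlap between the embryos of the stages in either species (as for 20.8% of genes in RC and 24.5% in AC). Neither step was called alone (limma, adjusted p = 0.292 and 0.162). At this RC step limma called 0 genes, with 3237 at an unadjusted p under 0.05, while edgeR called 0 and DESeq2 162. The difference between the 2 steps was -0.996 (SE 0.32) and passed narrowly (limma, adjusted p = 0.0488; 7.09% of genes called). It did not pass when any 1 replicate of RC, or replicate 1 or 2 of AC, was left out (adjusted p = 0.0618 to 0.194), or with no filter on low values (0.0604).

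Ordered by their means, the 17 groups of embryos formed a nearly continuous series for each gene. Sorting places like groups side by side, so overlap of neighbours is largely built in. It was not compared with other genes. For foxd3 the order began with RC at 10ss (1213 ± 1107 normalized counts, SD, n = 3) and RC at 4ss (865.8 ± 445.6, n = 2) and ended with AC at 15ss (326.4 ± 4.8, n = 3) and AC at 4ss (167.5 ± 73.6, n = 3). Neighbours in this order overlapped in 15 of 16 cases, with the exception of AC at 4ss below AC at 15ss. For pax3a the order ran from AC at 4ss (1555 ± 941.6) to RC at 18ss (880.3 ± 72.7), and all 16 neighbours overlapped. For prdm1a it ran from AC at 4ss (2295 ± 407.3) over RC at 4ss (1274 ± 115.9) to RC at 37ss (488.2 ± 114.9). Neighbours overlapped in 15 of 16 cases, and the exception was AC at 4ss, which stood above RC at 4ss.

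Since AC completes fewer somites than RC, equal somite numbers are not equal shares of somitogenesis. RC groups were therefore also set against the AC groups at about the same share, from RC at 15ss over AC at 10ss to RC at 37ss over AC at 30ss. The embryos of 4ss are in none of these pairs. By somite number they were at a similar, early share in both species, and they were compared at equal somite number only. In RC at 4ss foxd3 had 550.7 and 1181 normalized counts, against 345.6 to 709.7 in AC at 10ss. prdm1a had 1356 and 1192 in RC at 4ss, against 823.2 to 1604 in AC at 10ss. This pair of groups was not compared by a test, and a shift in timing at 4ss was not tested. In these 6 pairs foxd3 was not called, with differences between 0.11 and 0.53, all positive, and ranges that overlapped in 5 of 6. The exception was RC at 18ss (343.7, 600.8 and 504.0 normalized counts) over AC at 15ss (325.7, 331.6 and 322.1), where 34.3% of genes had ranges apart and 14.2% were called. For RC at 37ss over AC at 30ss foxd3 averaged 453.7 ± 93.0 normalized counts in RC and 403.7 ± 108.0 in AC (SD, n = 3 each), in a pair where 7.47% of genes were called. In RC at 26ss over AC at 20ss 12.7% of genes were called, none of the 3 among them.

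prdm1a was called in 1 of the 6 pairs. RC at 15ss had 882.7, 659.8 and 576.1 normalized counts and AC at 10ss had 823.2, 1604 and 1115, which overlap through 1 embryo of each. The difference was -0.71 (SE 0.21; limma, adjusted p = 0.0116; 18.2% of genes called). It was lost without replicate 2 of AC (-0.46, adjusted p = 0.107) and without replicate 3 of RC (-0.58, adjusted p = 0.116). RC at 30ss over AC at 22ss gave -0.50 (SE 0.21; limma, adjusted p = 0.106; 11.7% of genes called), which was called without replicate 2 of AC (-0.67, adjusted p = 0.0286). The prdm1a ranges were apart in RC at 26ss over AC at 20ss (-0.23; limma, adjusted p = 0.514), as for 44.2% of genes. Its remaining pairs lay between -0.23 and 0.21, and none was called. pax3a was lower in every RC embryo of 22ss (893.8, 988.4 and 1008 normalized counts) than in every AC embryo of 18ss (1432, 1469 and 1206), a difference of -0.50 (SE 0.23; limma, adjusted p = 0.0955). Of all genes, 17.1% were called in this pair and 44.6% had ranges apart. Without replicate 3 of AC it was called (-0.59, adjusted p = 0.0344). Its other 5 pairs lay between -0.34 and 0.02. The tests share AC and RC groups with those at equal somite number and are not independent of them.

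**Figure D3:**
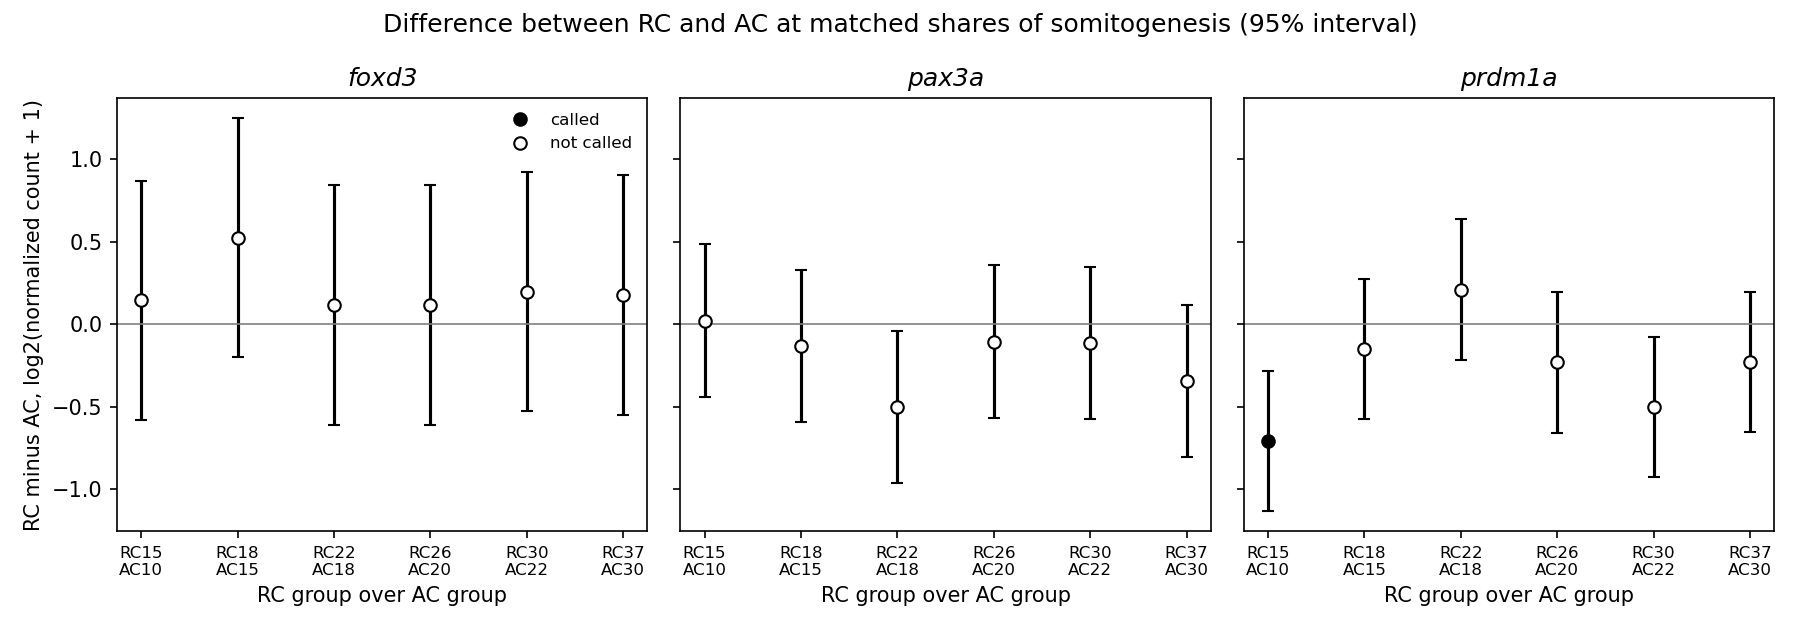
Difference between the species, RC minus AC on the scale of log2(normalized count + 1), for 6 pairs of groups at about the same share of somitogenesis (horizontal axis, RC group above AC group; numbers are somites). Bars are 95% intervals of the limma fit. The single filled, called point is prdm1a in RC at 15ss over AC at 10ss, at -0.71, and all foxd3 points lie above 0 between 0.11 and 0.53.

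The courses of the 3 genes were not alike. Over the means of the 9 RC groups, foxd3 and prdm1a had a Pearson r of 0.68, and over the 8 AC groups one of -0.68. These are descriptions over group means that share the same embryos. pax3a and foxd3 had an r of 0.55 over RC and -0.13 over AC, and pax3a and prdm1a had -0.11 over RC and 0.02 over AC. Among all genes tested, the 5 most like each member over the 17 group means reached r = 0.855 to 0.899 for foxd3, 0.759 to 0.830 for pax3a and 0.945 to 0.952 for prdm1a, and none of these 15 genes had a name in the tables used. The closest named gene, a ranking chosen after the values were seen, was meis2a for foxd3 (r = 0.846) and nusap1, a gene of the mitotic spindle, for pax3a (r = 0.637). For prdm1a it was mych (r = 0.942), a myc family gene used in the neural crest of zebrafish. mych averaged 2428 ± 107.5 normalized counts in RC (n = 2) and 3681 ± 1261 in AC (n = 3) at 4ss (SD), and it was called lower in RC at 15ss (-0.66, SE 0.24; limma, adjusted p = 0.0309).

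Other genes of the neural crest program were read from lists of names, of which only those in the study's tables of genes could be matched to identifiers. The study listed many of those genes because they differed between the species in these embryos, so being called is partly built in. Their counts are not independent evidence of a direction or of a raised share. The shares over all genes given beside them are no fair baseline for such chosen genes. Of 20 neural plate border genes 5 were matched, and of these 1 rose and 1 fell in RC against AC at 4ss, where 15.7% of all genes were called higher and 9.70% lower. They were gbx2, a homeobox gene (1.55, SE 0.36; limma, adjusted p = 0.00112), and zic2a, a zinc finger gene (-0.75, SE 0.28; adjusted p = 0.0327). The median of the 5 at 4ss was 0.04, against 0.02 over all genes. zic2a was higher in RC at 15ss (1.0, adjusted p = 0.00198). tfap2c, an AP-2 factor, was lower in RC at 15ss (-1.05, adjusted p = 0.0235) and higher at 18ss (1.04, adjusted p = 0.0275). tfap2a had no called stage. None of the 5 was called in the mean over the 8 stages.

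pax7a, a paired-box gene closely related to pax3 and the only 1 of 9 listed family paralogs that was matched, was called lower in RC at 18ss, the stage at which pax3a was. It averaged 158.5 ± 57.6 normalized counts in RC and 332.4 ± 62.0 in AC (SD, n = 3 each), a difference of -1.12 (SE 0.30; limma, adjusted p = 0.00447). At this stage 20.9% of genes were called, 10.6% lower in RC. The gene also belongs to the matched border genes above, and the caution on genes that the study chose holds for it. The alternative settings were not read for pax7a. Its group means were further apart between stages than those of pax3a, with 20.9 at 4ss and 641.8 at 30ss in RC, and 20.5 at 4ss and 892.3 at 30ss in AC. Only uniquely mapped reads were counted, so reads shared by such related genes are in neither.

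Of 20 other neural crest specifiers 4 were matched, with 2 called higher in RC at 4ss and none lower (15.7% and 9.70% of all genes), and a median of 0.77 at 4ss, against 0.02 over all genes. sox9b, a factor of crest and cartilage, was higher by 1.09 (SE 0.28; limma, adjusted p = 0.00267). sox10, which maintains crest cells and drives pigment and glial fates, had 13.3 and 68.7 normalized counts in the RC embryos of 4ss and no read in the 3 AC embryos of that stage. Against a limit of 3 reads in an AC embryo (3.9 normalized counts), the RC mean of 41.0 was at least 10.5-fold higher. That bound rests mostly on 1 RC embryo, as the other had 13.3. The paper describes the paralogs sox10a and sox10b, and only the 1 entry named sox10 was read here. Averaged over the 8 stages sox10 was the single specifier of the 4 that was called (0.81, SE 0.10; limma, adjusted p = 8.8e-09). The size of that value depended on 4ss, without which it was 0.21 (limma, adjusted p = 0.00257), under the fold criterion. tfap2b was lower in RC at 20ss (-1.56, adjusted p = 0.0421).

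Of the 42 other genes that the study lists for the neural crest, a list added after the values were seen, 8 were called higher and 9 lower in RC at 4ss, where 15.7% of all genes were higher and 9.70% lower. At 15ss 10 were called in each direction (9.86% of all genes higher, 13.4% lower), and at 18ss 8 were higher and 5 lower (10.3% and 10.6% of all genes). At 10ss 1 was lower and none higher, with 14.1% of all genes called. From 20 to 30ss between 2 and 5 of the 42 were called at a stage, against 9.93% to 11.9% of all genes. Over the 8 stages 4 were higher and 3 lower (10.9% and 13.1% of all genes), with a median of 0.12, against -0.01 over all genes. Of 18 pigment lineage genes 13 were matched, of which 6 were called higher and 2 lower in RC in the mean over the stages, for which 10.9% of all genes were higher and 13.1% lower. The higher ones were pmelb (1.58), tyrp1a (1.43) and oca2 (1.37), which act in the melanosome, and tyr (0.68), dct (0.60) and slc45a2 (0.86), also of melanin synthesis. The lower ones were ltk, a receptor kinase of iridophores (-1.94), and mitfa, a transcription factor of melanophores (-0.68). By stage these calls were uneven. Of the 13 pigment genes the number called higher ran from 0 at 10 and 22ss to 6 at 18ss, and at most 1 was called lower. The median was -0.04 at 22ss. The caution above on genes that the study chose on these embryos holds for both lists. Other listed genes called in this mean were erbb3b (0.83), a neuregulin receptor, and aldh1l1 (0.59), both higher in RC, and dhrs9 (-0.83), nusap1 (-0.65) and adarb1a (-0.60), lower in RC.

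Markers of other tissues in which the 3 genes are transcribed were matched to a limited degree. Of 11 somite and dermomyotome markers 3 were matched, of which myf5, a muscle determination gene, was higher in RC in the mean over the stages (0.73, SE 0.10; limma, adjusted p = 2.61e-07). At 4ss, where foxd3 differed most, none of the 3 was called and their median was -0.21. At 15ss myf5 (1.14, adjusted p = 0.00261) and aldh1a2, a retinoic acid synthesis gene of somites (0.63, adjusted p = 0.0480), were called higher, and at 26 and 30ss myf5 alone of the 3 was (1.47 and 1.22). At 18ss, where pax3a was lower in RC, myf5 was not called (0.46) and meox1, of somites, had a difference of -0.49 (limma, adjusted p = 0.155). fgf8a was the single matched gene of the tailbud list. The paper's in situ hybridization also shows it in the developing brain of these embryos, so it does not mark the tailbud alone. It was called higher in RC at 15ss (1.43, SE 0.37; limma, adjusted p = 0.00290) and 30ss (1.08, SE 0.37; adjusted p = 0.0457). The foxd3 ranges of the species were apart at both stages, but also at 4 and 26ss, where fgf8a was not called. Its difference was -0.88 at 4ss (limma, adjusted p = 0.0983) and 0.58 at 26ss. grhl3, the single matched epidermis marker, was called lower in RC at 15ss (-2.06, SE 0.52; adjusted p = 0.00244). In the mean over the stages both were under the fold criterion (0.50 for fgf8a and -0.48 for grhl3). The part of somite, tailbud and epidermis in the foxd3 values was not tested. foxd3 itself was imaged by the paper at 4ss, where its signal partly overlapped that of the sox10 paralogs. The paper treats it as a marker of early crest cells. None of the 8 slow muscle, 9 hatching gland and 9 dorsal neural tube markers was matched, and the part of these tissues in the values of prdm1a and pax3a was not tested. The paper's in situ hybridization does show prdm1a itself at 4ss. In AC it was strong in the prechordal plate, at the front tip of the neural tube, and weaker along the tube. In RC the paper describes the prechordal plate signal as lower and even. Imaging was set for each embryo and signal was compared only within embryos, so its strength is not calibrated between the species. The share of these sites in the prdm1a difference at 4ss was not tested.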

How the data were processed

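Polyadenylated RNA of single embryos was sequenced. The authors trimmed the reads with Trim Galore, used STAR to map RC and AC reads alike to the AC assembly fAstCal1.2, kept uniquely mapped reads, counted them per gene with the HTSeq option of STAR and divided the counts by size factors of the DESeq2 median of ratios. Mapping RC reads to the AC genome could lower RC counts where the sequences differ. The deposited signal values are these normalized counts. All values above 0 were whole multiples of 1 read (100%, tolerance 0.1 read), so whole reads were recovered for count tests. The 17 columns of group means and the tables of transposable elements and long noncoding RNAs were not used.

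Values were analysed as log2(normalized count + 1) in limma 3.58.1 (R 4.3.3) with a variance trend, for genes that reached 10 normalized counts in 2 or more embryos. Each fit took 1 spread per gene from all its groups, and standard errors, intervals and p-values use it. The comparisons at shared stages, their mean and the F-test of their variation used 47 embryos in 16 groups (21123 genes), and steps within a species and pairs at matched shares of somitogenesis used all 50 embryos in 17 groups (21212 genes). p-values were adjusted by Benjamini-Hochberg within each comparison over all genes. A call needed an adjusted p under 0.05 plus a difference of more than 1.5-fold (F-tests, the adjusted p alone). Counting errors cover counting only.

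Alternatives were pseudocounts of 0.1 and 10, no filter, quantile normalization, edgeR 4.0.16 and DESeq2 1.42.0 on recovered reads, a replicate block, each stage alone, no fold threshold and the omission of each replicate of a species. Omitting the 4ss embryos or 1 RC embryo of 10ss, and testing step differences under these alternatives, were added after the values were seen. Genes named are the 3 members, the 5 genes most like each in pattern, listed genes called in the mean difference and family paralogs, with further listed genes chosen after their values were seen. The members, lists and tests were chosen with earlier results of these data known. Gene names came from the study's tables, which name 199 of the genes.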

Additional observations from a re-analysis of the deposited data

Results flagged for a closer look

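The difference between RC and AC in foxd3 varied with stage (limma F-test, adjusted p = 0.0146), being largest at 4ss and lowest at 18ss. For pax3a, the step between 15 and 18ss differed between the species by -0.996 (RC minus AC, log2; limma, adjusted p = 0.0488), with lower values at 18 than at 15ss in RC and higher ones in AC. Both tests lost their call when single replicates were left out. The groups held at most 3 embryos, too few to test single embryos as outliers.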

How the results depend on the processing

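The higher foxd3 in RC at 4ss, its step in AC from 4 to 10ss, that of prdm1a, and the changes of foxd3 (AC) and prdm1a (both species) over the stages kept direction and call under every alternative run. For foxd3 at 4ss the highest adjusted p over these was 0.0471, a narrow pass. Leaving out replicate 1 or 3 of RC leaves 1 RC embryo at 4ss, which is then assumed to vary like the other groups, and foxd3 was 2.93 and 1.83 in these fits. For the others, calls changed as follows, and the causes were not tested. The mean difference of foxd3 ran from 0.55 to 0.82 over the omission of replicates, and was 0.42 without 4ss and 0.57 without the RC embryo of replicate 2 at 10ss. For its variation with stage the adjusted p ran from 0.00334 to 0.218 over these omissions and was 0.265 without 4ss. That of pax3a was 0.0340 without 4ss, and that of prdm1a was 0.0308 with DESeq2 and 0.0334 without that embryo, and 0.0119 to 0.505 over the omissions. The change over RC stages had an adjusted p of 0.0131 (edgeR) and 0.0124 (DESeq2) for foxd3, and 0.00795 (DESeq2) for pax3a. The difference of pax3a at 18ss ran from -0.72 to -0.57 over the omissions, and its step difference between 15 and 18ss from -1.12 to -0.84, with -0.996 not called without a filter (adjusted p = 0.0604). prdm1a at 4ss ran from -0.99 to -0.74, and was -0.83 and not called with that stage alone. RC at 15ss over AC at 10ss ran from -0.94 to -0.46.

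No called value turned its sign. Uncalled ones turned over the omission of replicates. foxd3 ran from -0.011 to 0.056 at 20ss, from -0.49 to 1.08 for RC at 10 over 4ss (-0.49 also without the single RC embryo), from -0.18 to 0.34 for RC at 15ss over AC at 10ss, from -0.061 to 0.26 for RC at 22ss over AC at 18ss and from -0.0034 to 0.23 for RC at 26ss over AC at 20ss. pax3a ran from -0.80 to 0.026 at 4ss, from -0.032 to 0.38 at 10ss, from -0.48 to 0.27 for AC at 10 over 4ss and from -0.19 to 0.22 for RC at 15ss over AC at 10ss. prdm1a ran from -0.032 to 0.38 at 18ss, from -0.016 to 0.12 at 26ss and from -0.028 to 0.38 for RC at 22ss over AC at 18ss.

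Same-numbered embryos of the species deviated together (r over genes above 0.1) in 4 of 23 pairs, and in none from 15ss on. All 4 were at early stages, both pairs of 4ss (0.107 and 0.102) and 2 of the 3 of 10ss (0.366 and 0.367). Pairs of unlike number were not compared, and pairs of a stage are not independent of each other, so these values cannot show a link by number. The main fits ignore replicate numbers, and a link between same-numbered embryos at these early stages is not excluded. With a replicate block foxd3 was 2.47 and prdm1a -0.83 at 4ss, both called, the mean difference of foxd3 was 0.67, its difference at 15ss was called (0.88, adjusted p = 0.0432), and so was its step difference between 4 and 10ss (-1.68, adjusted p = 0.0308). The number of genes called at a stage changed by over 1.5 times at 18ss (4419, against 2739 without replicate 2 of AC). For the mean over stages it was 5058, against 3310 with a pseudocount of 10, for the variation with stage 5193, against 1554 without replicate 3 of RC, for change over RC stages 12549, against 8263 without replicate 3 of RC, and for the step difference between 15 and 18ss 1497, against 292 and 2571 without replicate 2 and replicate 1 of AC. Other shares given above moved as much. The step difference between 4 and 10ss had 1896 genes called, against 704 with quantile normalization and 3053 without replicate 2 of AC. Without replicate 2 of AC, AC at 18 over 15ss went from 1211 to 367 and AC at 15 over 10ss from 1757 to 910. RC at 22ss over AC at 18ss went from 3625 to 2057 there. Each of the 3 genes had at least 91 reads in every embryo, so counting error was small beside the spread between embryos in most groups.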
